A study of Rattus norvegicus with 6 samples.

Results

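The transcripts described here are long noncoding RNAs (lncRNAs) that lie close to a gene without touching it, measured in intact and crushed rat sciatic nerve. They were chosen by catalogue, length and position. A transcript was taken when it came from the NONCODE catalogue (identifiers starting with NONRATT), was at most 10000 nt long, overlapped no gene span of the mRNA table and lay within 10 kb of one. The 4 transcripts NONRATT003466.2, NONRATT003467.2, NONRATT003468.2 and NONRATT003473.2 were left out. This gave 3150 of the 22721 lncRNAs listed (13.9%). Of the other NONCODE transcripts, 11681 lay inside a gene span, 4013 overlapped one in part and 1410 were farther than 10 kb from every gene.

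Libraries were made from sciatic nerve RNA of 1-month-old Sprague-Dawley rats, with 2 rats in each of 3 groups. The D4 and D7 groups were sampled 4 and 7 days after a crush of the nerve, and the control group received no crush. The sample labels call the controls normal, whereas the study's methods describe the same operation without the clamp. Fragments counted on lncRNAs numbered between 2694777 and 3043817 per library, and those on genes between 18727255 and 25350886.

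A lncRNA is an RNA longer than the small regulatory classes and with no long reading frame. lncRNAs transcribed beside a gene can act on that gene in cis, share its promoter or enhancers, or be unannotated continuations of its own transcript, and expression values alone do not separate these. After a crush, the axons beyond the injury degenerate, Schwann cells shut down the myelin programme, divide and turn into repair cells, and macrophages clear the debris before axons regrow. The question was whether the lncRNAs beside genes changed after the crush, and how each change stood beside that of the nearest gene.

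The gap between a lncRNA and its nearest gene ran from 1 to 9999 bp, with a median of 1608 bp, where 1 means adjoining bases. The nearest genes numbered 2567, and 1241 of the 3150 lncRNAs had more than 1 gene span within 10 kb. The shortest was 206 nt and the longest 5884 nt, and the median length of 755 nt compared with 639 nt for the other NONCODE transcripts. The locus was exactly as long as the transcript, so that it held no intron, in 2523 of 3150 (80.1%). That share was 42.8% inside genes, 29.98% for partial overlaps and 61.8% far from genes. The catalogue name carried the symbol of the nearest gene for 97 of the 3150 (3.08%), against 43.1% of the transcripts inside genes and 38.5% of the partial overlaps. The strand of the lncRNAs was not used here, so upstream and downstream are not distinguished. Gene spans and loci are those of the Rnor_6.0 build.

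The sequences of the lncRNAs themselves are not shown. To show what lies at the start of genes whose neighbouring lncRNAs moved together, promoters were read from RefSeq (GRCr8 build). They were those of the genes of a cell cycle list beside lncRNAs that rose at D4, other than Incenp, and 3 are printed. Each holds 250 bases before and 50 after the start of the gene, on the strand of the gene. Capitals mark the CCAAT box, a short motif common in promoters of genes of the cell division cycle, read as CCAAT or, on the other strand, as ATTGG.

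Ccnb1 (chr2:33655176-33655475, minus strand): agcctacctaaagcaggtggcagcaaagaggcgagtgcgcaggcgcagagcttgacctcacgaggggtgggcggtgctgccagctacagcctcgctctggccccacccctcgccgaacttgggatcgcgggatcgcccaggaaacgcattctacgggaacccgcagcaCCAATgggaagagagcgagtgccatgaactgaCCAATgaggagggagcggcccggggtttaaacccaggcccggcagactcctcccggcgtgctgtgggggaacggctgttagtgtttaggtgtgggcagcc
Cenpa (chr6:31431503-31431802, minus strand): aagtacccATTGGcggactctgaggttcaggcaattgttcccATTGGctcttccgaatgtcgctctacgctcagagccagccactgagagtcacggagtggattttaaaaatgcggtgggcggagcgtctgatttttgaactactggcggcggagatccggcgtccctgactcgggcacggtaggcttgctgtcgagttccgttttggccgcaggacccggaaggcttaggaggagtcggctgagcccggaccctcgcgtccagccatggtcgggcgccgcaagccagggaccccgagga
Nek2 (chr13:105936559-105936858, plus strand): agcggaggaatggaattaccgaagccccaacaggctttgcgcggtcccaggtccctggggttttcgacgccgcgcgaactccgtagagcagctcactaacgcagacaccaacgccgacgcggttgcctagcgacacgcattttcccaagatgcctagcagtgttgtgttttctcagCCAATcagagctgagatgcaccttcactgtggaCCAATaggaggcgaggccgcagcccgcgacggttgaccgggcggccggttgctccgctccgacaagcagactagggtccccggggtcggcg

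The CCAAT box stood 82 and 50 bases before the start of Ccnb1, 242 and 208 before that of Cenpa, and 74 and 41 before that of Nek2, counted to its first base. One copy stood 117 bases before the start of Ska1. The promoters of Cdkn2a and Cenph held none. Among all 33469 rat promoters of this length, 12549 (37.5%) held at least 1 copy on either strand, and 4 of these 6 did. The letters TTTGAA, searched on both strands, were found in 18.3% of all promoters and here in those of Cenpa and Ska1, with no overlap with the CCAAT box. Of 2518 symbols of nearest genes, 1659 had a promoter entry.

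The counts of the lncRNAs beside genes took 23.3% to 24.1% of all lncRNA counts in each of the 6 libraries. Their median FPKM, a level per length, was 1.44 and 1.59 in the control libraries against 0.815 and 0.890 for all lncRNAs listed. It lay between 1.27 and 1.60 in the 4 injured libraries, lowest at D4. The filter on low counts kept 2117 of the 3150 for testing, and 1974 of these had a nearest gene that was tested as well. The 1033 left untested had a mean of at most 10.5 counts per library, and 24 of them had no count at all.

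After the crush, lncRNAs beside genes changed in both directions, and more of them fell than rose with TMM scaling, though not without it. A change was called when edgeR's quasi-likelihood test, adjusted over all lncRNAs tested by the Benjamini-Hochberg method, gave a p under 0.05 and the fold change was at least 2. At D4, 116 of 2117 rose (5.48%) and 187 fell (8.83%), against 5.19% and 4.87% of all 14077 lncRNAs tested. At D7, 75 rose (3.54%) and 112 fell (5.29%), against 3% and 2.79% of all lncRNAs. At both days 59 were higher and 93 lower, 151 were called at D4 alone and 35 at D7 alone, and a call at 1 day alone does not show a difference between the days. Tested directly, 6 were higher at D7 than at D4 (0.283%) and 2 lower (0.0945%), against 0.142% and 0.107% of all lncRNAs. With 1 library left out, the D4 counts became 28 rises and 28 falls without D4 replicate a, 27 and 30 without D4 replicate b, 65 and 80 without control replicate a and 65 and 104 without control replicate b. The D7 counts became 24 and 21 without D7 replicate a and 22 and 19 without D7 replicate b, and lay between 30 and 39 rises and 35 and 50 falls without any 1 of the other libraries.

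The excess of falls depended on the scaling. Rises made up 38.3% of the called lncRNAs at D4 with TMM factors, 51.7% without them and 26.2% when lncRNAs and genes were fitted jointly. At D7 these shares were 40.1%, 52.5% and 35.5%. In these 3 fits the D4 log2 fold changes of all tested lncRNAs had medians of 0.02, 0.20 and −0.19. Those of the lncRNAs beside genes had medians of −0.15, 0.03 and −0.36, the lower one each time.

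Position classes were then set side by side. At D4, 14.3% of the tested lncRNAs beside genes were called, 6.65% of those inside genes, 10.8% of those overlapping a gene in part and 12.4% of those far from genes. At D7 these shares were 8.83%, 3.59%, 5.11% and 7.58%. The median count of the tested lncRNAs was 80.8 beside genes against 30.2 inside, 46.7 for partial overlaps and 29.2 far from genes, and its part in the shares was not tested.

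Within 10 kb, the share that rose was smaller the farther the gene was, and the share that fell was highest at middle distances. Neither was tested. Of the tested lncRNAs 1 to 1000 bp from a gene, 55 of 838 rose at D4 (6.56%) and 62 fell (7.40%). From there to 5000 bp, 51 of 996 rose (5.12%) and 104 fell (10.4%), and beyond 5000 bp 10 of 283 rose (3.53%) and 21 fell (7.42%). The share of rises was lowest in the farthest bin at D7 too, where 4 of 283 rose (1.41%). The median count was 94.2, 86.2 and 50 in the 3 bins, so the farthest lncRNAs were also the least deeply counted.

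**Figure D1:**
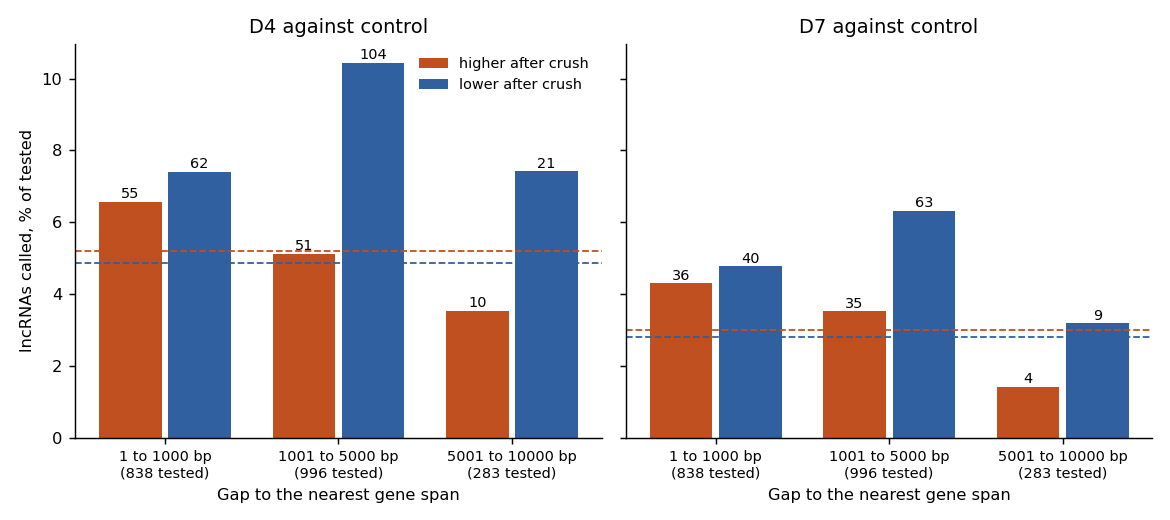
Percent of tested lncRNAs called higher or lower after the crush (bars, with the number called above each) by the gap to the nearest gene in bp, at D4 and D7. Dashed lines mark the shares over all 14077 lncRNAs tested, 5.19% higher and 4.87% lower at D4 and 3% and 2.79% at D7, and the falls in the middle bin, at 10.4% at D4, stand farthest above theirs.

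In most called cases the nearest gene was called in the same direction. Of the 116 lncRNAs that rose at D4, 77 lay nearest to a gene that rose, 2 to one that fell, 28 to one that was not called and 9 to one that was not tested. Of the 187 that fell, 121 lay nearest to a gene that fell, 3 to one that rose, 57 to one not called and 6 to one not tested. Both were therefore called the same way in 198 pairs and opposite ways in 5. At D7 there were 134 pairs called the same way and 2 called opposite ways. Among all genes tested, 11.2% were higher and 10.7% lower at D4, and 9.83% and 9.02% at D7. Among the 1814 tested lncRNAs that were not called at D4, 81 lay nearest to a gene that rose and 137 to one that fell. Both values of a pair come from the same libraries, and the controls are shared by the days, so these counts are a description.

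**Figure D2:**
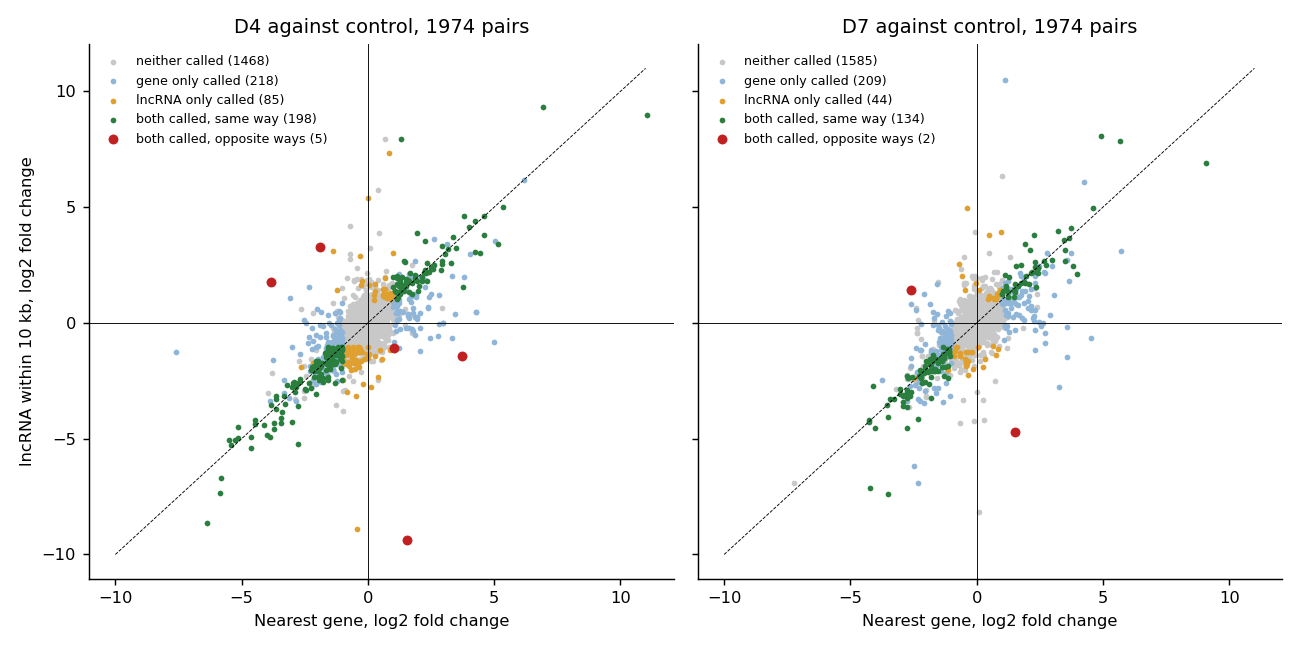
log2 fold change of each lncRNA (y axis) against that of its nearest gene (x axis) at D4 and D7, 1 point for each of 1974 pairs tested, with the line of equal change dashed. Most pairs called the same way (198 at D4, 134 at D7) lie along the line, and the pairs called opposite ways (5 and 2) lie in the other quadrants. Fitted values of features with 0 counts in a group depend on the prior count.

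Among called lncRNAs with a tested nearest gene, the share whose gene was called the same way was lower in the farther bins, a difference that was not tested. At D4 it was 86 of 113 within 1000 bp (76.1%), 100 of 151 from there to 5000 bp (66.2%) and 12 of 24 beyond 5000 bp (50%). At D7 it was 61 of 74 (82.4%), 69 of 96 (71.9%) and 4 of 10 (40%). Across position classes at D4 it was 198 of 288 beside genes (68.8%), 294 of 465 inside (63.2%), 166 of 275 for partial overlaps (60.4%) and 11 of 43 for lncRNAs farther than 10 kb (25.6%), where the nearest gene of 24 further called lncRNAs was not tested. Of all called lncRNAs, tested gene or not, whose catalogue name does not carry the gene's symbol, 191 of 288 (66.3%) had a gene called the same way at D4, and among those that carry it 7 of 15 (46.7%).

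**Figure D3:**
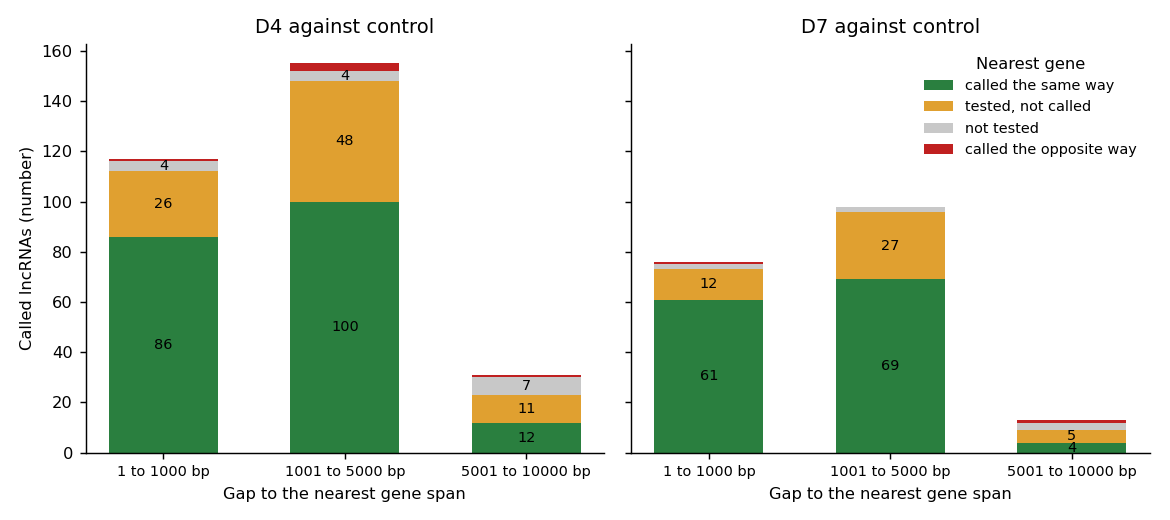
Number of called lncRNAs at D4 and D7 by the gap to the nearest gene, divided by how that gene was called. The part called the same way is 86 of 117 in the nearest bin at D4 and 12 of 31 in the farthest, where 7 nearest genes were not tested.

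The 6 most abundant lncRNAs beside genes include 2 that rose. NONRATT025432.2 (chromosome 6, 147089280 to 147092168) lies 1929 bp from Itgb8, an integrin subunit that activates latent TGF-beta, and carries that gene's name in the catalogue. It had 4402 and 3401 counts in the control libraries, 15866 and 18680 at D4 and 19911 and 17743 at D7. All 4 injured libraries were above both controls, with log2 fold changes of 1.99 at D4 (SE 0.12, edgeR adjusted p = 0.0024) and 2.18 at D7 (SE 0.12, edgeR adjusted p = 0.0020). Itgb8 itself rose by 2.13 and 2.43. NONRATT004418.2, 3049 bp from Gas7, a growth-arrest gene expressed in neurons, had 3955 and 3147 counts in the controls, 9571 and 11250 at D4 and 14341 and 10858 at D7, and its log2 fold changes of 1.39 and 1.73 lay beside 1.42 and 1.77 for Gas7. The D4 call of this lncRNA was lost without D4 replicate b (adjusted p = 0.0544). The others were NONRATT024625.2, NONRATT001117.2 near Tead1, NONRATT003893.2 near Neurl1 and NONRATT011156.2. NONRATT001117.2, beside the Hippo pathway transcription factor Tead1, had 8444 and 6547 counts in the controls, 5820 and 7038 at D4 and 9325 and 8268 at D7 and was not called. NONRATT011156.2 went from 8425 and 7179 counts in the controls to 4224 and 4308 at D4, a log2 fold change of −1.03 whose call was lost without control replicate a or D4 replicate b (adjusted p up to 0.0542). Its nearest gene, AABR07019083.1, stood at 0.01.

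Among the largest rises, several lncRNAs were near absent from the control nerve. NONRATT026805.2 (chromosome 7, 65156979 to 65159832) lies 112 bp from Hmga2, an architectural chromatin protein of embryonic and dividing cells. It had 3 and 6 counts in the controls, 2556 and 2716 at D4 and 397 and 807 at D7. The log2 fold change was 8.99 at D4 (SE 0.59, edgeR adjusted p = 0.0024) and 6.93 at D7 (SE 0.55, edgeR adjusted p = 0.0056). No overlap with the controls was a condition for naming it among the largest rises. Hmga2 had 0 counts in both controls, 315 and 321 at D4 and 50 and 79 at D7. NONRATT020004.2 (chromosome 3, 165018646 to 165019878), 352 bp from the potassium channel subunit gene Kcng1, had 0 and 1 counts in the controls, 364 and 524 at D4 and 133 and 172 at D7. With 1 control count, the ratio at D4 was 794 with a 95% exact counting interval of 142 to 31380, which covers counting error only. Kcng1 rose as well, from 5 and 8 counts to 997 and 1359. NONRATT006663.2, 1788 bp from Cpn2, went from 0 and 1 counts to 201 and 125 at D4 and 45 and 92 at D7, a ratio at D4 of 291 (95% exact counting interval 51.9 to 11542), whereas Cpn2, a subunit of a plasma carboxypeptidase, had no count in any library. Its D7 call was lost without control replicate a, control replicate b or D7 replicate b (adjusted p up to 0.0753).

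On chromosome 19, a pair of lncRNAs between Nup133 and Abcb10 peaked at D4. NONRATT014393.2 (56735471 to 56735995) had 1 and 3 counts in the controls, 635 and 515 at D4 and 43 and 27 at D7. NONRATT014395.2 (56736594 to 56737926) had 3 and 1, then 380 and 377, then 30 and 33. Both were highest in the D4 libraries, with log2 fold changes at D4 of 7.93 (SE 0.55) and 7.33 (SE 0.40). Nup133, a nuclear pore component 4099 bp from the first, rose by 1.32 at D4, from 665 and 522 counts to 1964 and 2265. Abcb10, a mitochondrial transporter 4909 bp from the second, had a log2 fold change of 0.83. The fall from D4 to D7 was called for both lncRNAs, with log2 fold changes of −3.98 and −3.52 (edgeR adjusted p = 0.048 and 0.028), while neither gene was called between the days. The D4 calls held with each library left out. The D7 call of NONRATT014393.2 was lost in 5 such fits and that of NONRATT014395.2 without either D7 library (adjusted p up to 0.0777). The D7-against-D4 call of NONRATT014393.2 was lost in all 6 such fits and that of NONRATT014395.2 in the 4 without a D4 or D7 library (adjusted p up to 0.170).

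Beside the listed cell cycle genes, most of the tested lncRNAs rose at D4. Of 18 lncRNAs nearest to a gene of the cell cycle list, 12 were tested. At D4 8 rose and 1 fell, and at D7 4 rose and none fell. Over all lncRNAs tested, 5.19% rose and 4.87% fell at D4, and 3% rose and 2.79% fell at D7. The median log2 fold change of the 12 was 2.60 at D4, against −0.15 over all tested lncRNAs beside genes and 0.02 over all lncRNAs. In all 8 rises at D4 within this list the nearest gene rose too. NONRATT016047.2 (chromosome 2, 30783114 to 30783762), 153 bp from Ccnb1, the cyclin that drives entry into mitosis, had 6 and 10 counts in the controls, 221 and 226 at D4 and 154 and 147 at D7. Its log2 fold change of 4.62 at D4 (SE 0.33, edgeR adjusted p = 0.0024) lay beside 4.61 for Ccnb1. NONRATT016046.2, 1005 bp from the same gene, had 1 and 4 counts in the controls and 52 and 28 at D4. NONRATT024870.2, 1361 bp from Cenpa, the histone variant of the centromere, had 1 count in each control, 40 and 39 at D4 and 31 and 43 at D7, a ratio of 35.3 at D4 (95% exact counting interval 9.45 to 297). The others rose near Incenp, Nek2, Cenph, Ska1 and Cdkn2a. Cenph and Ccnb1 lie close together on chromosome 2, with promoter entries from 33644193 and 33655176 (GRCr8 build). The rises near them are therefore not at separate loci. NONRATT020956.2 fell near Ccnd2, whose own log2 fold change was −0.84. With each library left out in turn, the rises near Ccnb1 (NONRATT016047.2) and Cenpa were kept, and the D4 calls near Incenp, Nek2, Cenph, Ska1, Cdkn2a, Ccnd2 and of NONRATT016046.2 were each lost without D4 replicate a and without D4 replicate b and in up to 6 fits, with adjusted p up to 0.208. The D7 calls near Cenph and Ska1 were lost in all 6 fits. NONRATT018586.2, 110 bp from the spindle protein gene Ckap2l, was outside the list and rose from 5 and 10 counts to 188 and 240 at D4 and 123 and 134 at D7. Other genes outside the list did not move with their lncRNA. Ska3 rose at D4 while NONRATT010483.2 fell, and Cdkn1b fell while NONRATT020977.2 rose, pairs described below. The genes Oip5, Mis18a, Aspm and Cdt1, also taken up below, rose at D4 beside lncRNAs that were not called.

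Beside secreted factors and their receptors, lncRNAs moved both ways. Of 19 near genes of the neurotrophic and guidance list, 14 were tested, 2 rose and 1 fell at each day, each with its gene, where 5.19% of all lncRNAs rose and 4.87% fell at D4. The medians of the 14 log2 fold changes were 0.01 at D4 and −0.08 at D7. NONRATT009530.2 (chromosome 14, 84501195 to 84502293), 553 bp from Lif, a cytokine induced in injured nerve, had 28 and 33 counts in the controls, 531 and 709 at D4 and 370 and 411 at D7. The log2 fold change was 4.16 at D4 and 3.57 at D7, and Lif itself had 4.00 and 3.46. NONRATT003950.2, 3666 bp from Gfra1, a receptor for GDNF, rose from 476 and 425 counts to 2188 and 2794 at D4 and 3457 and 2925 at D7. NONRATT015073.2, 1580 bp from Lifr, the receptor of LIF, fell from 4230 and 3543 counts to 1336 and 1056 at D4 and 788 and 1129 at D7, beside a log2 fold change of −1.84 for Lifr. The ligand and its receptor thus had neighbouring lncRNAs that changed in opposite directions. The Lif and Gfra1 neighbours kept their calls with each library left out, and that of Lifr lost its D4 call without control replicate a or either D4 library and its D7 call without either control or D7 replicate a (adjusted p up to 0.0869).

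Of 5 lncRNAs nearest to a gene of the immune and inflammation list, 2 were tested. Both rose at D4 and D7 with their genes, where 5.19% of all lncRNAs rose at D4 and 3% at D7. The list does not hold every immune gene. Cd83, outside it, rose at D4 while NONRATT012384.2 beside it fell, a pair described below. NONRATT006315.2, 776 bp from the cytokine signal inhibitor Socs3, had 49 and 57 counts in the controls, 291 and 386 at D4 and 315 and 333 at D7. NONRATT029085.2, 891 bp from Cx3cr1, the fractalkine receptor of macrophages, had 34 and 28, then 231 and 417, then 182 and 237, and its D7 call was lost without either control or either D7 library (adjusted p up to 0.0773). The 10 macrophage markers fixed for this work summed to between 514 and 555 CPM (counts scaled to the library's gene total) in the controls, 2552 to 2601 at D4 and 1798 to 2114 at D7, and all 10 rose at D4. In RNA from whole nerve, more cells of a type and more RNA per cell cannot be told apart.

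Beside genes of axon-glia contact and ion channels, 26 lncRNAs were listed and 18 tested, of which 1 rose and 6 fell at D4 and 3 rose and 4 fell at D7. The nearest gene was called the same way each time. The medians of the 18 log2 fold changes were −1.28 at D4 and −1.16 at D7, against −0.15 and −0.11 over all tested lncRNAs beside genes and 0.02 and 0.04 over all lncRNAs. Falls outnumbered rises over all lncRNAs beside genes too, at 8.83% against 5.48% at D4 and 5.29% against 3.54% at D7. Over all lncRNAs tested, 5.19% rose and 4.87% fell at D4, and 3% rose and 2.79% fell at D7. The D7 rises of the list include NONRATT008472.2 and NONRATT008471.2, both nearest to Kcnj10. NONRATT021865.2 (chromosome 4, 159185630 to 159188308), 2496 bp from Kcna1, a potassium channel of the juxtaparanode, had 9842 and 7026 counts in the controls, 278 and 315 at D4 and 1466 and 662 at D7. Its D4 log2 fold change was −4.98 (SE 0.42, edgeR adjusted p = 0.0040), against −5.14 for Kcna1. NONRATT021866.2, 715 bp from Kcna1, fell from 738 and 396 counts to 24 and 32. NONRATT015684.2, 819 bp from Kcna2, the partner subunit of Kcna1, had 765 and 640 counts in the controls, 20 and 27 at D4 and 209 and 89 at D7. NONRATT015685.2, outside the list and 150 bp from AC113635.3, fell from 2411 and 1482 counts to 57 and 72. Others that fell at D4 lay near Scn7a and Cadm2. The single rise at D4 was that near Kcng1. The D4 calls near Kcna1 and of NONRATT015685.2 held with each library left out. Those near Kcna2, Scn7a and Cadm2 were lost without D4 replicate a and without D4 replicate b, and those near Scn7a and Cadm2 also without either control (adjusted p up to 0.128). At D7 the calls of NONRATT021865.2 were lost without control replicate a or D4 replicate b, those of NONRATT021866.2 without either D7 library, and those of NONRATT015684.2 and NONRATT015685.2 in 5 of 6 fits (adjusted p up to 0.107).

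Of 9 lncRNAs beside myelin and Schwann cell genes, 7 were tested, with median log2 fold changes of 0.67 at D4 and 0.57 at D7, against −0.15 and −0.11 over all tested lncRNAs beside genes. At D4 1 fell and none rose, where 4.87% of all lncRNAs fell and 5.19% rose. At D7 1 rose and none fell, where 3% of all lncRNAs rose and 2.79% fell. NONRATT022570.2 (chromosome 5, 138307118 to 138308052), 1435 bp from Cldn19, the claudin of Schwann cell tight junctions, was the single fall at D4. It had 5363 and 3243 counts in the controls, 38 and 54 at D4 and 2597 and 1512 at D7. The D4 libraries lay far below all others, with a log2 fold change of −6.70 (SE 0.41, edgeR adjusted p = 0.0024) beside −5.82 for Cldn19. NONRATT023106.2, near Pou3f2, a transcription factor of the promyelinating Schwann cell, was called higher at D7 (log2 fold change 1.78), a call lost in each of the 6 fits without 1 library (adjusted p up to 0.157). The 10 myelin markers summed to 63650 to 90829 CPM in the controls, 5104 to 5678 at D4 and 12885 to 19954 at D7.

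**Figure D4:**
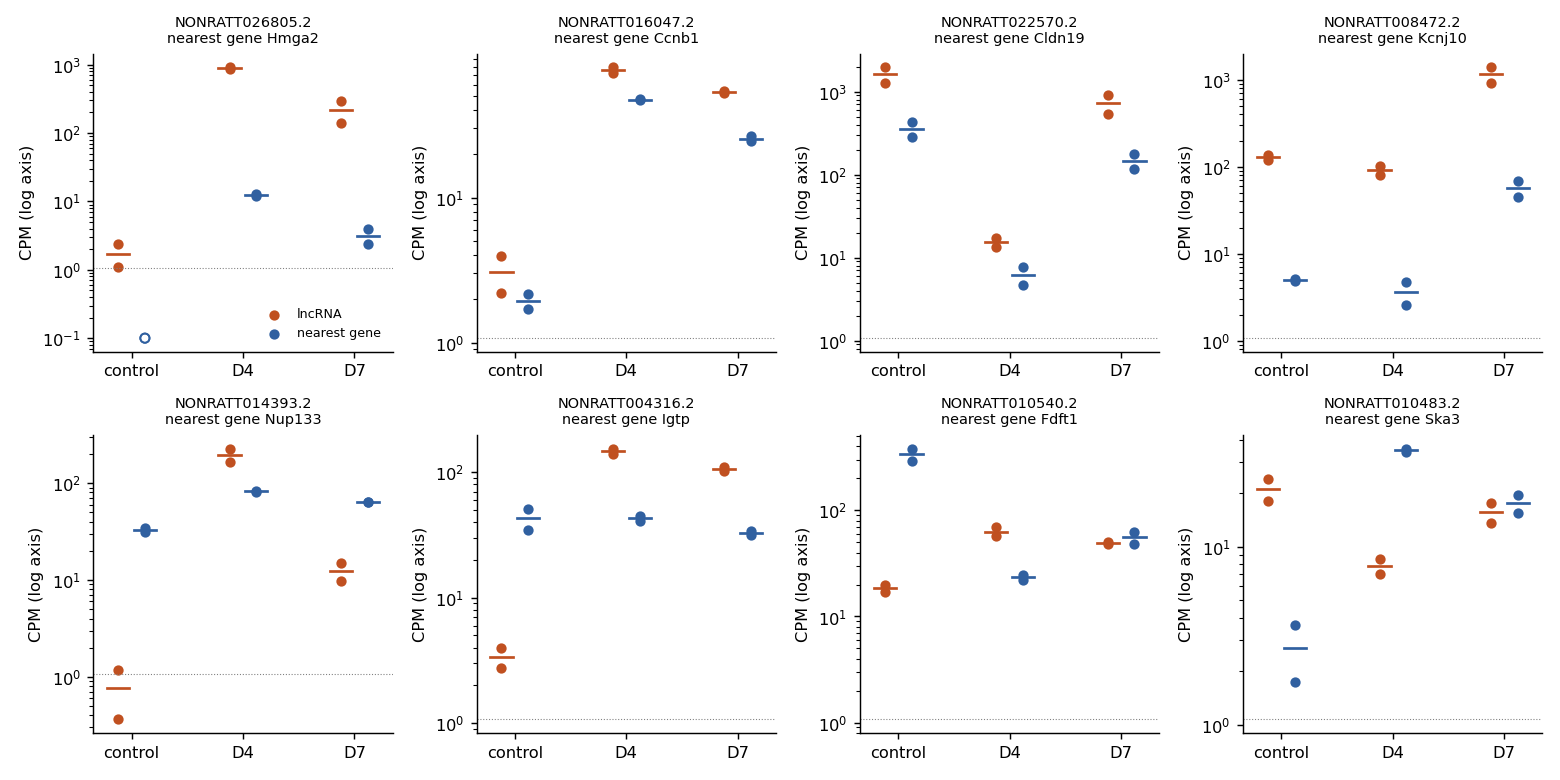
CPM (counts scaled to the library) of 8 lncRNAs (orange) and their nearest genes (blue) in the 2 libraries of each group, on log axes, with each table's own TMM-adjusted library sizes. Short lines are group means, the dotted line is the level of 3 lncRNA counts, and open circles at 0.1 mark the control libraries in which Hmga2 had 0 counts. In the upper row lncRNA and gene move together, and in the lower row the lncRNA moves more than its gene or against it.

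Further large falls were those of single pairs. NONRATT002710.2, 18 bp from Svip, a small regulator of protein degradation at the endoplasmic reticulum, went from 13412 and 8565 counts to 276 and 353 at D4 and 1532 and 892 at D7. Its log2 fold changes of −5.28 and −3.27 lay beside −5.43 and −3.45 for Svip. NONRATT025122.2 and NONRATT025123.2, 1575 and 226 bp from the spectrin gene Sptb, fell as well, with log2 fold changes at D4 of −5.40 and −4.94 against −4.61 for Sptb. NONRATT028875.2, 992 bp from the sulfotransferase gene Chst2, went from 2425 and 1235 counts to 56 and 76 at D4 and 142 and 89 at D7. NONRATT026169.2 lies 223 bp from a gene whose symbol the file gives as a date, 3-Sep (ENSRNOG00000007686), and describes as septin 3, a cytoskeletal GTPase. It had 1141 and 736 counts in the controls, 1 and 4 at D4 and 100 and 70 at D7, a fall of 420-fold at D4 (95% exact counting interval 180 to 1295). NONRATT002763.2, 3724 bp from the sialyltransferase gene St8sia2, went from 223 and 106 counts in the controls to 12 and 3 at D7, and NONRATT026283.2, 713 bp from Rapgef3, an exchange factor activated by cyclic AMP, from 71 and 35 to 4 and 2. The D7 calls of these last 2 lncRNAs were lost in each of the 6 fits without 1 library, and that of NONRATT028875.2 without D7 replicate b (adjusted p = 0.0511). The D4 call of NONRATT025123.2 was lost without either D4 library, and the D7 call of NONRATT026169.2 without control replicate a or either D7 library.

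Beside matrix and wound healing genes, 15 lncRNAs were listed and 12 tested. Of these, 2 rose and 1 fell at D4 and 1 rose and 1 fell at D7. Over all lncRNAs tested, 5.19% rose and 4.87% fell at D4, and 3% rose and 2.79% fell at D7. The medians of the 12 log2 fold changes were −0.49 at D4 and −0.0018 at D7, against −0.15 and −0.11 over all tested lncRNAs beside genes. Besides the rise near Itgb8, NONRATT028681.2, 47 bp from the TGF-beta mediator Smad3, rose from 4 and 2 counts to 30 and 26 at D4, while Smad3 had a log2 fold change of 0.98. NONRATT019111.2, 2817 bp from the collagen gene Col5a1, fell from 148 and 103 counts to 19 and 12 at D4, while Col5a1, with 33212 and 29873 counts in the controls and 31552 and 33710 at D4, had a log2 fold change of −0.47. Of 5 near lipid synthesis genes, 4 were tested and 1 rose, NONRATT010540.2 near Fdft1. The D4 calls near Smad3 and Col5a1 were lost without D4 replicate b, that near Smad3 also without either control or D4 replicate a (adjusted p up to 0.107), and the D7 call near Col5a1 in all 6 fits.

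The comparison between the days named 6 lncRNAs that were higher at D7 than at D4, and the nearest gene of each was also called higher, where 1.68% of all genes were higher and 0.494% lower. NONRATT008472.2 and NONRATT008471.2 (chromosome 13, 90753435 to 90756314 and 90752842 to 90753344) lie 854 and 261 bp from Kcnj10, an inwardly rectifying potassium channel of glia. The first had 328 and 347 counts in the controls, 227 and 322 at D4 and 3972 and 2570 at D7, and the second 65 and 52, 33 and 36, and 501 and 306. Both were high at D7 alone, with D7-against-D4 log2 fold changes of 3.65 and 3.60 (edgeR adjusted p = 0.016 and 0.027), beside 3.95 for Kcnj10. NONRATT015094.2, 3300 bp from the cadherin gene Cdh6, dipped from 526 and 653 counts to 191 and 232 at D4 and reached 1199 and 1039 at D7. For NONRATT022570.2, NONRATT015685.2 and NONRATT026169.2, the rise from D4 to D7 left their counts below those of the controls. For NONRATT022570.2 this difference from the controls at D7 was not called (log2 fold change −1.16, edgeR adjusted p = 0.098). In these 3 the log2 fold change between the days was 5.55, 2.92 and 5.09. None of the calls between the days held with every library left out. NONRATT022570.2 and NONRATT008472.2 lost theirs without either D4 library (adjusted p up to 0.106), and NONRATT015685.2 and NONRATT026169.2 in each of the 6 fits. NONRATT015094.2 and NONRATT008471.2 lost theirs without either D4 library and in 4 and 5 fits in all, with adjusted p up to 0.164. The D7 call of NONRATT008471.2 was lost without either control (adjusted p up to 0.0584).

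For the 5 pairs called in opposite directions at D4, other genes within 10 kb were read as well. In 3 of them another gene was tested, and in 2 it was called the same way as the lncRNA. NONRATT010540.2 (chromosome 15, 46338118 to 46339188) lies 61 bp from Fdft1, the squalene synthase of cholesterol synthesis, and 506 bp from Ctsb, a lysosomal protease. It rose from 47 and 50 counts to 194 and 177 at D4 and 145 and 135 at D7. Fdft1 fell over the same libraries from 7405 and 4874 counts to 541 and 668 and 1330 and 982. Ctsb rose from 12426 and 12034 counts to 59425 and 45442 at D4, with a log2 fold change of 1.59 beside 1.77 for the lncRNA. NONRATT003106.2 had a log2 fold change at D4 of −1.10 and lies 1688 bp from Exnef, which rose by 1.05, and 2224 bp from Dcun1d3, which fell by 1.26 on the log2 scale. NONRATT010483.2, 1750 bp from Ska3, a kinetochore gene, had 50 and 61 counts in the controls, 24 and 22 at D4 and 39 and 49 at D7, whereas Ska3 went from 34 and 60 counts to 831 and 965. The other tested gene there, RGD1561590, 2035 bp away, was not called (log2 fold change −0.39). NONRATT020977.2, 3945 bp from the cell cycle inhibitor Cdkn1b, rose from 3 and 6 counts to 53 and 46 while Cdkn1b fell by 1.88 on the log2 scale. NONRATT012384.2, 8779 bp from Cd83, had 99 and 57 counts in the controls and 0 in both D4 libraries, at least 28.7-fold lower when 3 counts per library are taken as the floor, while Cd83 rose by 1.56. All 5 lost their own D4 call without D4 replicate a, and those near Fdft1, Cdkn1b and Cd83 also without control replicate a or D4 replicate b. The call near Exnef was lost in 5 fits and that near Ska3 in all 6 (adjusted p up to 0.223). At D7 the pairs near Fdft1 and Cd83 were called opposite ways, and both lncRNAs lost that call in all 6 fits (adjusted p up to 0.130). The locus near Cdkn1b overlaps 1 other listed lncRNA and that near Cd83 overlaps 3.

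Whether a second gene moved with the lncRNA was then counted. Of the 90 lncRNAs called at D4 whose nearest gene was tested and was either not called or called the opposite way, 42 had another tested gene within 10 kb, and in 13 of these 42 (31.0%) that gene was called the same way as the lncRNA. Where the nearest gene had already been called the same way, it was 19 of 52 (36.5%). At D7 these counts were 9 of 20 (45%) and 11 of 33 (33.3%).

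To ask whether a lncRNA changed differently from its gene, the log2 ratio of lncRNA to gene was fitted in each library with limma, a test added after the data were seen. Over all 13375 lncRNAs with a tested nearest gene, the ratio was called higher in 1.26% and lower in 0.912% at D4, and in 0.583% and 0.501% at D7. Of the 1974 pairs beside genes, the ratio rose in 11 and fell in 40 at D4 (2.58% in all), and rose in 4 and fell in 15 at D7 (0.963%). At D4 the median log2 ratio change was 0.15 over all 13375 lncRNAs and 0.04 over the 1974 pairs, and −0.20 and −0.31 when total counts of both tables set the scale. The ratio changes given here were not corrected for these medians. Of the 51 pairs at D4, the lncRNA alone was called in 18, the gene alone in 19, both in opposite directions in 5, both in the same direction in 2 and neither in 7. In 16 of the 19 where the gene alone was called, it had risen.

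The ratio with the lowest p was at Igtp, an interferon-induced GTPase. NONRATT004316.2 (chromosome 10, 43655000 to 43655657), 1610 bp from Igtp and named after it in the catalogue, had 11 and 7 counts in the controls, 431 and 430 at D4 and 316 and 283 at D7. Igtp had 987 and 574 counts in the controls, 1090 and 1114 at D4 and 670 and 687 at D7 and was not called. The ratio rose by 5.15 on the log2 scale at D4 (SE 0.18, limma adjusted p = 0.0012) and by 5.08 at D7. This locus overlaps NONRATT004315.2, 1010 bp from Igtp, which had 544 and 299 counts in the controls, 197 and 228 at D4 and 133 and 136 at D7, so fragments may have been divided between both. The ratio calls of NONRATT004316.2 held with each library left out. So did, at D4, those of NONRATT010540.2 to Fdft1, which rose by 5.57, of NONRATT014395.2 to Abcb10, which rose by 5.68, and of NONRATT010483.2 to Ska3, which fell by 5.09.

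In several pairs the gene rose and the lncRNA beside it was not called. NONRATT013182.2, 5848 bp from the G protein subunit gene Gng4, had 384 and 370 counts in the controls, 427 and 412 at D4 and 412 and 394 at D7, while Gng4 went from 14 and 12 counts to 140 and 152 at D4 and 86 and 99 at D7. The ratio fell by 2.83 (SE 0.16, limma adjusted p = 0.0038), a call kept at D4 with each library left out and lost at D7 without control replicate b (adjusted p = 0.0562). NONRATT018484.2, 5951 bp from Oip5, which helps load the centromeric histone, had 4998 and 4583 counts in the controls and 3119 and 2944 at D4, while Oip5 had 2 and 8 counts and then 226 and 244. Further examples, chosen after their values were seen, were the ratios to Mis18a, Plk4, Aspm, Cdt1, Sox2, Jun and Pou3f2 (NONRATT022147.2), with log2 differences at D4 of −3.47, −2.98, −3.24, −3.84, −3.44, −1.75 and −2.27. Of the 12 tested lncRNAs near genes of the cell cycle list, 1 had its ratio called at D4. Of the lncRNAs nearest to Pou3f2, NONRATT022147.2 had 140 and 107 counts in the controls and 50 and 81 at D4, and NONRATT023106.2 had 84 and 124, then 166 and 263. Of these ratio calls at D4, those to Oip5, Mis18a and Plk4 were lost without either D4 library, that to Pou3f2 also without either control, that to Aspm in 5 fits, and those to Sox2, Jun and Cdt1 in all 6 (adjusted p up to 0.214).

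The other case, a lncRNA that fell and a gene that was not called, was found at NONRATT024567.2, 5519 bp from RGD1311756. It had 74 and 40 counts in the controls, 0 in both D4 libraries and 10 and 2 at D7, at least 21.0-fold lower at D4, while the gene had a log2 fold change of −0.43. NONRATT007816.2, 2280 bp from Rpl31l4 and 2972 bp from Gjc3, a connexin of myelinating cells, fell from 134 and 96 counts to 25 and 26 at D4 and had 126 and 103 at D7. At D4 Rpl31l4 had a log2 fold change of 0.39, and Gjc3 fell by 1.95 on the log2 scale. NONRATT028785.2, 5884 bp from Tmod3, had a log2 fold change of −1.53 beside 0.02 for Tmod3 and −1.48 for Tmod2, 7512 bp away. The D4 calls of these 3 lncRNAs were lost without either D4 library, and that of NONRATT024567.2 also without either control (adjusted p up to 0.0986).

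The shortest gaps of pairs called the same way at D4 were 2 to 24 bp. NONRATT017220.2 was 2 bp from the kinase gene Pim1, NONRATT008580.2 10 bp from Nek2, NONRATT003389.2 12 bp from the death-domain adaptor gene Fadd, NONRATT011744.2 16 bp from Stab1, a scavenger receptor, NONRATT002710.2 18 bp from Svip and NONRATT005671.2 24 bp from Ctns, the lysosomal cystine transporter. NONRATT017220.2 rose from 16 and 7 counts to 157 and 137 at D4, with a log2 fold change of 3.52 beside 2.27 for Pim1. NONRATT003389.2 rose from 183 and 190 counts to 635 and 629, with 1.60 beside 1.51 for Fadd. At D7 NONRATT012115.2, 5 bp from the muscle gene Myom2, had 21 and 12 counts in the controls and 0 in both D7 libraries, at least 5.82-fold lower, and NONRATT006910.2, 9 bp from the endothelial transcription factor gene Erg, went from 112 and 149 counts to 24 and 33. The endothelial markers summed to 752 to 1313 CPM in the controls and 302 to 520 at D7, and those of skeletal muscle to 17.9 to 46.4 and 8.74 to 24.3. At D4 the muscle markers summed to 7.73 to 92.6, so their level varied from library to library. The part of endothelial or muscle cells in these lncRNAs was not tested. NONRATT025755.2, 59 bp from Btg1, rose from 130 and 78 counts to 580 and 653 at D7, and NONRATT024032.2, 76 bp from Ston1, fell from 3963 and 2920 to 1305 and 1026. The call near Svip was kept in all 6 fits. Those near Pim1 and Fadd at D4 were lost without either D4 library, those near Stab1 and Nek2 in 4 fits, those near Btg1 and Ston1 at D7 without D7 replicate b, that near Pim1 at D7 in 5 fits, and those near Ctns, Myom2 and Erg in all 6 (adjusted p up to 0.193).

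Among the most abundant pairs called the same way, NONRATT030302.2, 51 bp from Kif1a, a motor of axonal transport, had 8202 and 5279 counts in the controls, 1039 and 1531 at D4 and 4029 and 2333 at D7, and its call at D4 was lost without either D4 library (adjusted p up to 0.0833). NONRATT004141.2 and NONRATT004142.2, 512 and 3042 bp from the podosome scaffold gene Sh3pxd2b, rose at D4 with log2 fold changes of 2.06 and 1.90, beside 1.87 for Sh3pxd2b, with calls kept in all 6 fits. NONRATT027428.2, 2408 bp from Sesn3, fell from 5057 and 4315 counts to 1889 and 2412 at D4, a call lost without either D4 library. At D4, 22 genes had 2 called lncRNAs beside them, and in all 22 both moved the same way. At D7 there were 16 such genes, and in 15 both moved the same way. The exception was Igtp, where the D7 call of NONRATT004315.2 was lost in 5 of the 6 fits without 1 library (adjusted p up to 0.159). The lncRNAs at 1 gene share a locus and the same libraries, so their agreement is not independent. These counts are a description, and no share over all lncRNAs was set beside them. No gene had more than 2 called lncRNAs at its side. Of the 7 lncRNAs nearest to Nfkb2, the largest number at any gene, 3 were tested and none was called at either day.

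Among the lncRNAs that the study names, NONRATT009996.2, 797 bp from Ppp2r2c, a phosphatase regulatory subunit, had 1818 and 1144 counts in the controls, 102 and 183 at D4 and 646 and 379 at D7. The log2 fold changes were −3.54 at D4, a call lost without D4 replicate a, and −1.62 at D7, which was not called. Ppp2r2c had −3.85 and −1.67 and was called lower at both days. The study lists both the lncRNA and Ppp2r2c among the changes unique to its D4 comparison.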

How the data were processed

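After removal of ribosomal RNA, the authors aligned reads to Rnor_6.0 with HISAT2 2.0.4, assembled and annotated transcripts with StringTie 1.3.0 and GffCompare, and deposited whole-number fragment counts per lncRNA transcript and per gene. The authors also deposited FPKM values, used here only for median levels. Whether counting used the strand is not given in the sources used here.

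Counts were filtered with filterByExpr (14077 of 22721 lncRNAs and 15195 of 30957 genes kept), scaled with TMM factors and fitted in 1 model of the 6 libraries for each table with edgeR 4.0.16 (quasi-likelihood test, R 4.3.3). p-values were adjusted over all features of the table, and calls needed an adjusted p under 0.05 and at least a 2-fold change. The biological coefficient of variation was 0.399 for lncRNAs and 0.181 for genes. With 2 rats per group, p-values rest on the spread between pairs of rats. The procedures were tested on simulated data.

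The nearest gene was that with the smallest gap between spans, with ties broken by the higher mean count. The ratio test, added after the data were seen, used limma 3.58.1 on log2 CPM with a prior count of 2. Folds against a group with 0 counts used 3 counts per library as a floor. Exact binomial (Clopper-Pearson) intervals cover counting error only.

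lncRNAs named in the text were the 6 largest rises and falls at each day among called lncRNAs with at least 50 counts on average in the higher group and no overlap with the controls, every lncRNA called between the days, the 3 most abundant called lncRNAs beside genes of each list, the opposite pairs, the 6 nearest and 6 most abundant same-way pairs at each day, the 6 most abundant and those the study names. Some pairs of the ratio test, and further called lncRNAs of the listed genes, were named after their values were seen, unless another part of the rule holds them. Some lncRNAs that this rule holds are not reported here. The lncRNAs, gene lists and tests were chosen with earlier results of these data known. Alternatives were fits of 2 groups, a block for the library letter, DESeq2 1.42.0, no TMM, a joint fit, other filters, a test of the 2-fold change itself, a 2 kb window, the nearest tested gene, no overlapping lncRNAs and leaving out each library. Python 3.11.15 was used with pandas 2.3.3, scipy 1.17.1, numpy 2.4.6 and, for plots, matplotlib 3.10.9.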

Additional observations from a re-analysis of the deposited data

Results flagged for a closer look

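Changes after the crush that differed between D4 and D7 by the direct test in the same fit were found for 8 lncRNAs beside genes. Of the 2117 tested, 6 were higher at D7 than at D4 (0.283%) and 2 lower (0.0945%), against 0.142% and 0.107% of all lncRNAs. With the library letter as a replicate block, 0 differed between the days. As described above, none of these calls held with every library left out. The log2 fold change of D7 against D4 was 5.55 for NONRATT022570.2 near Cldn19, 3.65 for NONRATT008472.2 and 3.60 for NONRATT008471.2 near Kcnj10, 2.47 for NONRATT015094.2 near Cdh6, 2.92 for NONRATT015685.2 near AC113635.3, and 5.09 for NONRATT026169.2. It was −3.52 for NONRATT014395.2 near Abcb10 and −3.98 for NONRATT014393.2 near Nup133. The control libraries are shared by both days, and 330 of the 2117 lncRNAs tested had an unadjusted p under 0.05 in this comparison. Groups of 2 libraries are too small to test a single library as an outlier.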

How the results depend on the processing

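Same-letter libraries come from separate rats. The correlations of their deviations from group means were 0.01 to 0.07 (lncRNAs) and −0.13 to 0.19 (genes). With 2 libraries per group, these values cannot decide whether same-letter libraries share anything else. With the letter as a replicate block, 124 lncRNAs fell at D4, 46 rose and 68 fell at D7, 0 differed between the days, 3 and 1 pairs were called opposite ways at D4 and D7, and 16 and 2 ratios were called. With only the 2 groups compared, 48 rose and 72 fell at D7, with 3 and 1 opposite pairs. DESeq2 gave 190 falls at D7 and 61 differences between the days. Without TMM there were 3 opposite pairs at D4. Without the low-count filter, 122 fell at D4, 44 rose and 61 fell at D7, 2 differed between the days, 81 pairs moved the same way at D7, and opposite pairs numbered 3 and 0. With at least 10 counts in every library, 18 differed between the days and 1 pair was opposite at D7. When the 2-fold change itself was tested, 39 rose and 52 fell at D4, 29 rose and 28 fell at D7, 3 differed between the days, 68 and 48 pairs moved the same way, and 1 and 0 opposite ways. Fitted jointly with genes, 313 fell at D4, 185 fell at D7, 32 differed between the days, and 9 pairs were opposite at D4. Within 2000 bp, and likewise without lncRNAs that overlap another, 3 and 1 opposite pairs were left. With total counts as the scale, an alternative added after the data were seen, 12 ratios were called at D7. The cause of these changes was not tested, except that fewer lncRNAs enter within 2000 bp and without overlaps. Leaving out 1 library, with the lone sample of a group assumed to vary like the others, gave 27 to 89 rises and 28 to 137 falls at D4, 22 to 39 rises and 19 to 50 falls at D7, 0 to 6 differences between the days, 44 to 156 and 35 to 73 pairs called the same way at D4 and D7, 0 to 5 and 0 to 0 opposite pairs, and 6 to 30 and 3 to 6 ratios. Of 59 calls of named lncRNAs at D4, 25 were kept in each of these fits and 5 were lost in each, and of 45 at D7, 17 were kept and 12 lost. Of the 136 log2 fold changes of named lncRNAs that were recomputed (88 with at least 10 counts in every library), 0 changed sign; ratios and the genes' own changes are not among them.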
